A study of Mus musculus with 4 samples.

Results

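The genes described here are 10 cell adhesion molecules known for leukocyte traffic or as members of the immunoglobulin superfamily: Icam1, Icam2, Vcam1, Madcam1, Sele, Selp, Alcam, Mcam, L1cam and Bcam. They were chosen by gene symbol from a table of 48425 genes, and all 10 were in it. Of these, 8 had a value above 0 in at least 1 library, against 22936 of the 48425 genes. RNA had been sequenced from mesothelial cells, the flat cells lining the abdominal cavity, of 4 wild-type C57BL/6 mice aged 10 weeks, with no treatment named. There was 1 library per animal, 1 group and no comparison group. The cells were lifted off with trypsin and EDTA, sorted as CD45-negative, podoplanin-positive and Gpm6a-positive, and used fresh, so no library shows the tissue before digestion. Library totals ran from 4090224 to 4569578 estimated counts. Levels are given as CPM, meaning the estimated count divided by the library's own total and scaled to counts-per-million, with the mean ± SD over 4 animals.

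Leukocytes leave the blood in steps. Selectins on activated endothelium slow the passing cell by binding sugars on its surface. Integrins on the leukocyte then grip members of the immunoglobulin superfamily such as Icam1 and Vcam1 on the vessel wall, and on tissue cells beyond it. Inflammatory cytokines raise transcription of several of these genes through the transcription factor NF-kB, and mesothelial cells are known to carry Icam1 and Vcam1. Alcam, Mcam, L1cam and Bcam belong to the same superfamily, but are known more for contacts between like cells or with laminins of the basement membrane.

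The cells carried the RNA of mesothelium, and that of fibroblast markers at a like summed level. All 12 mesothelial markers lay above 1 CPM, led by the uroplakin Upk3b at 4135 ± 236 CPM, the keratin Krt19 at 2299.6 ± 954 CPM and mesothelin (Msln) at 2257 ± 393 CPM. The 12 summed to 16540 to 18597 CPM per animal, and 10 fibroblast markers to 14828 to 22467 CPM. Over all genes, 24.7% lay above 1 CPM by edgeR's test, to be read beside each count of markers. In blood endothelium 3 of 12 markers (25%) lay above 1 CPM, and the summed level of the 12 was 48.2 to 71.4 CPM per animal. That list was led by Kdr at 49.2 ± 14.1 CPM, Plvap at 6.18 ± 5.12 CPM and Tek at 2.64 ± 3.47 CPM. Tek did not pass without animal 4 (mean 0.917 CPM), and the mean of Plvap was 4.04 CPM without animal 3. The endothelial cadherin gene Cdh5 was at 0 in all 4 libraries, and Pecam1 had 1.69, 1.83, 0.239 and 0 CPM in animals 1 to 4. None of 6 lymphatic endothelial markers passed in edgeR's test; Mmrn1, Reln and Prox1 were highest at 0.326, 0.265 and 0.177 CPM. Of 8 platelet markers 2 passed (25%), the integrin chains Itgb3 at 31.9 ± 18.4 CPM and Itga2b at 15.2 ± 5.23 CPM, while the platelet chemokine Pf4 had 0.685 ± 0.477 CPM. Ptprc, the gene of CD45, had 3.05, 0, 0.187 and 0 CPM.

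Bcam was the most abundant of the 10 genes. It encodes the Lutheran glycoprotein, an immunoglobulin-superfamily receptor for the laminin alpha chain Lama5, and lies on the minus strand of chromosome 7 at 19756131 to 19771016. Its level was 336, 204, 303 and 364 CPM in animals 1 to 4, a mean of 302 ± 69.9 CPM. Animals 1, 3 and 4 lay close together and animal 2 lower. By mean CPM it ranked number 501 of all genes, and it held 68.9% ± 7.37 (SD, n = 4) of the summed CPM of the 10 genes.

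Icam1 came next. It encodes the ligand of the leukocyte integrins that pair Itgb2 with Itgal or Itgam, and lies on the plus strand of chromosome 9 at 21015985 to 21028817. Its level was 90.5, 104, 115 and 110 CPM, a mean of 105 ± 10.4 CPM. The 4 animals differed little, with the highest 1.27 times the lowest.

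Vcam1 encodes the ligand of integrins that contain Itga4 and lies on the minus strand of chromosome 3 at 116109949 to 116129688. Its level was 8.79, 29.4, 19.6 and 11.9 CPM, a mean of 17.4 ± 9.17 CPM. Animal 2 was highest and animal 1 lowest, by a factor of 3.34.

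Alcam encodes the ligand of the T cell receptor Cd6 and also binds itself on neighbouring cells. It lies on the minus strand of chromosome 16 at 52248996 to 52454074 and had 6.20, 5.49, 7.63 and 4.75 CPM. The mean was 6.02 ± 1.23 CPM, and the animals stayed within a factor of 1.61.

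**Figure D1:**
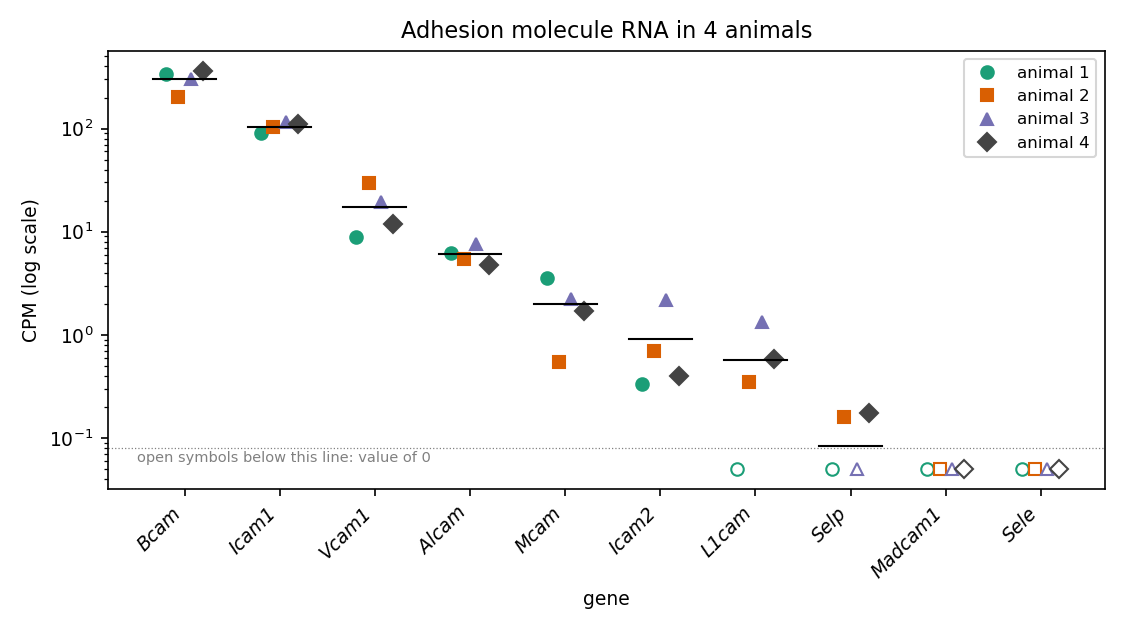
Level of each of the 10 genes in each animal, in CPM on a log scale, ordered by mean. Each symbol is 1 animal, bars are means, and open symbols under the dotted line mark a value of 0. Bcam lies between 204 and 364 CPM and Icam1 between 90.5 and 115 CPM in every animal, while Madcam1 and Sele are at 0 in all 4.

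Each of these 4 genes exceeded 1 CPM in a one-sided quasi-likelihood test with edgeR, adjusted over all genes: Bcam at adjusted p = 1.03e-30, Icam1 at adjusted p = 8.64e-27, Vcam1 at adjusted p = 1.35e-14 and Alcam at adjusted p = 7.91e-08. All 4 animals were above 1 CPM for each. That is 4 of 10 genes, against 24.7% of all 48425 genes by the same test. Above 10 CPM there were 3 of the 10 (Bcam, Icam1 and Vcam1, the last at adjusted p = 0.0151 by edgeR), against 15.1% of all genes. The median of the 10 mean levels was 1.45 CPM, and that of all genes in the table was 0.

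The other 6 genes did not pass. Mcam, which encodes CD146 of endothelium and pericytes, a receptor for the laminin chain Lama4, had 3.52, 0.546, 2.22 and 1.70 CPM, a mean of 1.998 ± 1.23 CPM. These levels rest on 35.6 estimated counts in all, and the test against 1 CPM gave adjusted p = 0.219 by edgeR. Animals 1, 3 and 4 lay above 1 CPM and animal 2 below. Over the other settings with the 1 CPM threshold, the adjusted p for Mcam ran from 0.0646 in edgeR with a filter on low counts to 0.941 in edgeR without animal 1.

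Icam2, the constitutive endothelial ligand of the Itgal-Itgb2 integrin, had 0.333, 0.698, 2.19 and 0.402 CPM, a mean of 0.905 ± 0.869 CPM over 16.2 estimated counts. Animal 3 held most of it, and without that animal the mean was 0.478 CPM. L1cam, the neural adhesion molecule of axons and Schwann cells, had 0, 0.351, 1.34 and 0.587 CPM, a mean of 0.569 ± 0.567 CPM over 10.0 estimated counts. Here too animal 3 was highest, and the mean without it was 0.313 CPM. Both had an adjusted p of 1 in the same edgeR test.

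The vascular addressins and selectins were at the bottom. Selp, the selectin of platelets and activated endothelium, had 1.41 estimated counts in all, at 0, 0.161, 0 and 0.173 CPM. Sele, the cytokine-induced selectin of endothelium, and Madcam1, the addressin of gut venules that binds the Itga4-Itgb7 integrin, were at 0 in all 4 libraries. A count of 0 allows up to 3 counts, which is 0.657, 0.686, 0.659 and 0.733 CPM in the respective libraries and 0.171 CPM when all 4 are pooled. These limits cover counting error only, because several reads may copy 1 molecule when no molecular identifiers are used.

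Promoter windows are shown for 3 of these genes, the most abundant (Bcam), the abundant cytokine-inducible ligand (Icam1) and a cytokine-inducible gene without a count (Sele). Each window runs from 250 bases before to 50 bases after the start of the gene in RefSeq on GRCm38.p6, 5′ to 3′ on the strand of the gene. Such windows were found for 8 of the 10 genes, all but Icam2 and Vcam1. Capitals mark matches, on either strand, to GGGNNNNNCC, a loose form of the NF-kB site, or to GGAAATTCC, a shorter form known from the Icam1 gene and added after the data were seen. The windows are chr9:21015690-21015989 on the plus strand for Icam1, chr1:164047984-164048283 on the plus strand for Sele and chr7:19770483-19770782 on the minus strand for Bcam. For Icam1 and Bcam the RefSeq start differs from the end of the gene given above, which is from GENCODE. The GENCODE start of Icam1, 21015985, lies near the end of its window. The Bcam window lies wholly inside the gene as GENCODE places it, 19756131 to 19771016. Distances below are to the RefSeq start.
Icam1: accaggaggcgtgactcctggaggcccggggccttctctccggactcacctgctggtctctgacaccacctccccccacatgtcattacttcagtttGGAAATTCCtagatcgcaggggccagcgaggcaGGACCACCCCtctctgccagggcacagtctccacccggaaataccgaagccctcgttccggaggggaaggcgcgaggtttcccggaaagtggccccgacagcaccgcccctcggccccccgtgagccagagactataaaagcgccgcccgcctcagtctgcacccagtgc
Sele: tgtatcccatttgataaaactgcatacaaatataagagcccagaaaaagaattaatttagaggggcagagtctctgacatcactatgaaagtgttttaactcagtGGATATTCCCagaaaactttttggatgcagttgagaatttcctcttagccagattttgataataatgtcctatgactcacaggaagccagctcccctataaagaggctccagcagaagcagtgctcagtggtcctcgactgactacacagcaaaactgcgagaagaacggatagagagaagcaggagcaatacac
Bcam: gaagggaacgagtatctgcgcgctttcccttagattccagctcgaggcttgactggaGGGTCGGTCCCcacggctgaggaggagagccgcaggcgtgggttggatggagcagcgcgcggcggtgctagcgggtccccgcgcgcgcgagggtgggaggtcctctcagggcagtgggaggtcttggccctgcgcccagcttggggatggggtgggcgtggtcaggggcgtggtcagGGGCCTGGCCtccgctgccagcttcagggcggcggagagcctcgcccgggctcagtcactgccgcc

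The loose motif occurred in 50.8% of 32851 promoter windows of this length, so a match to it is common. The Icam1 window held 1 such match, from 120 to 111 bases before the start, and the Sele window held 1, from 145 to 136 bases before it. The Bcam window held matches in 2 places, of which the one farther from the start is the overlap of a match on each strand. The shorter motif occurred in 0.317% of windows. In the 8 genes it was found only in Icam1, from 153 to 145 bases before the start. The motif is known from that gene, so a match there was fixed in advance and its rarity says nothing new. Vcam1 had no window to search. Madcam1, without a count, held 5 matches to the loose motif when overlaps and both strands are counted. They lie in 2 places, from 84 to 74 and from 71 to 61 bases before the start. Mcam, which did not pass 1 CPM, held 9 by the same count. A match describes letters in the window and does not show binding.

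Levels of different genes compare only after division by transcript length, here the longest annotated transcript of each gene. In CPM per kilobase the order was Bcam at 124 ± 28.8, Icam1 at 41.3 ± 4.12, Vcam1 at 4.26 ± 2.24, Alcam at 0.997 ± 0.203, Icam2 at 0.706 ± 0.678, Mcam at 0.668 ± 0.413 and L1cam at 0.111 ± 0.111. Selp, Sele and Madcam1, at or below 3 counts, were left out of the order.

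Within each animal Bcam lay above Icam1, by a mean log2 ratio per kilobase of 1.56 ± 0.40, which is 2.95-fold. Icam1 lay above Vcam1 in 4 of 4 animals by a log2 ratio of 3.42 ± 0.70, or 10.7-fold. Vcam1 lay above Alcam in 4 of 4 animals by 1.97 ± 0.78 on the same scale. Flipping the signs of the 4 ratios in every possible way (an exact permutation test, two-sided) gave p = 0.125 for each of these 3 ratios, the smallest that 4 animals allow, so no ratio could pass 0.05. Adjusted over the 6 neighbouring pairs of the order, the same permutation test gave p = 0.25 for each.

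Alcam and Icam2 were not separated: the log2 ratio was 1.99, 0.74, -0.43 and 1.33 in animals 1 to 4. Icam2 and Mcam were not separated either, with Icam2 higher in 2 of 4 animals and a mean log2 ratio of -0.07 ± 1.77. Mcam lay above L1cam in the 3 animals with a value for both, by 1.75 ± 0.49. Per kilobase and pooled over the 4 libraries, Icam1 was at least 704-fold higher than Sele and at least 347-fold higher than Madcam1. Vcam1 was at least 72.8-fold and 35.9-fold higher than the same genes. All 4 bounds take the limit of 3 counts over the group.

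**Figure D2:**
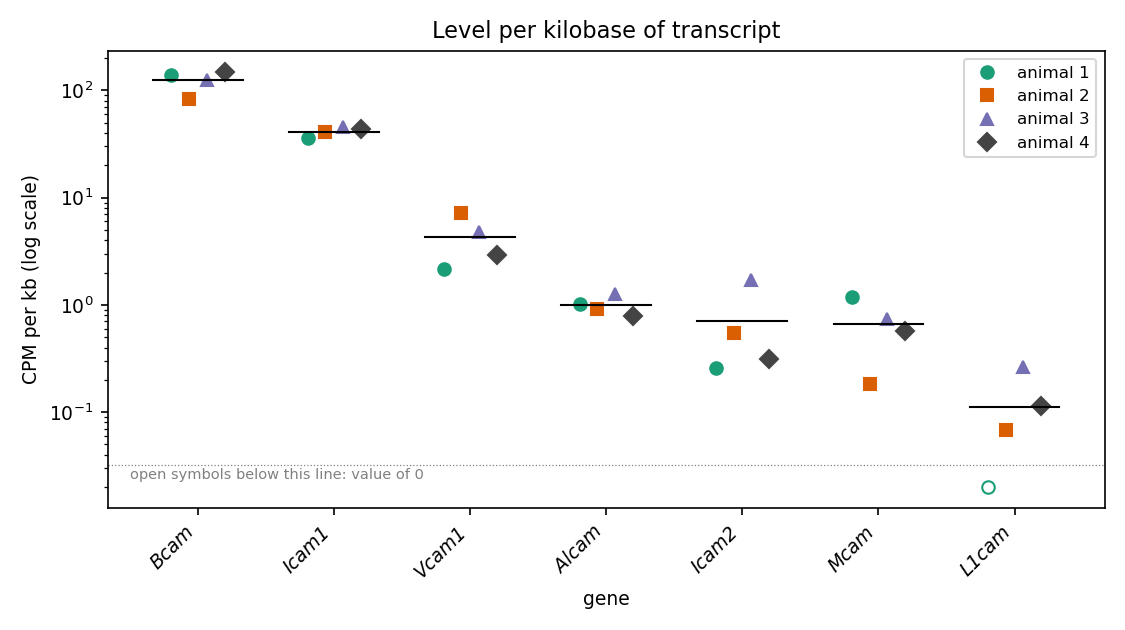
Level per kilobase of the longest annotated transcript, in CPM per kb on a log scale, for the 7 genes with more than 3 counts. Each symbol is 1 animal and bars are means. Symbols of Bcam, Icam1 and Vcam1 keep their order in every animal, and those of Icam2 and Mcam change places between animals.

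The spread between animals was set beside that of the 500 genes nearest in mean CPM, as the SD of log2(CPM + 0.5) over 4 animals. Vcam1 had an SD of 0.75, above the SD of 87.6% of its neighbours, whose median was 0.42. Bcam had 0.37, above 78.2% of its neighbours (median 0.20). Icam1 had 0.15, above 21.4% of its neighbours (median 0.24), and Alcam had 0.27, above 8.6% (median 0.63). Mcam, Icam2 and L1cam, with few counts, lay inside the quartiles of their neighbours at 0.82, 0.77 and 0.78. These are descriptions of 4 libraries, and no test was made of them.

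**Figure D3:**
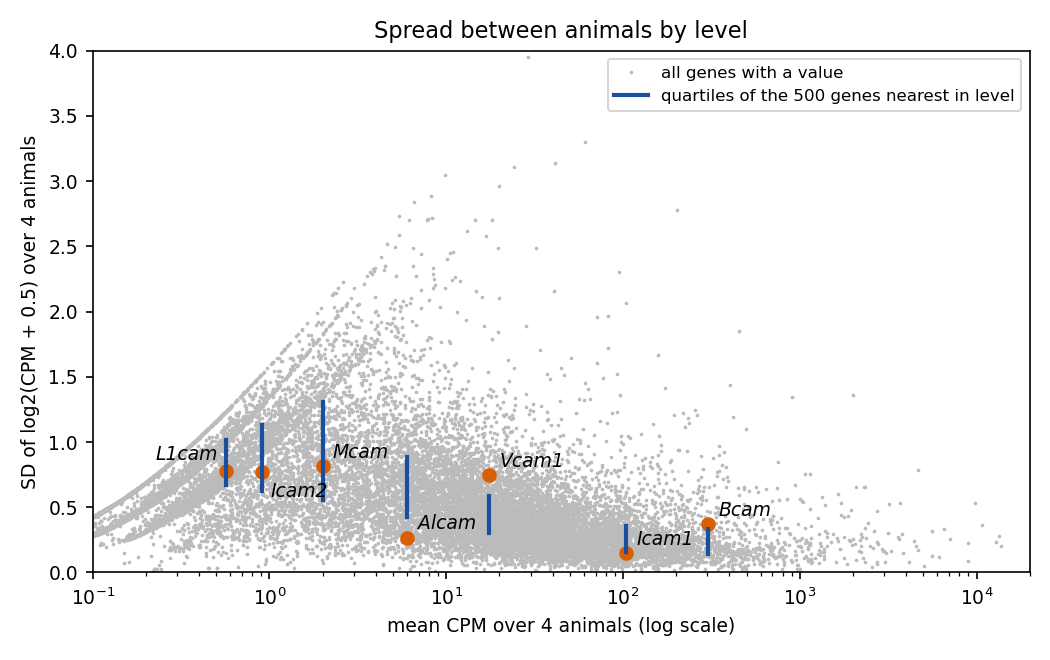
SD of log2(CPM + 0.5) over the 4 animals against mean CPM on a log scale, for all genes from 0.1 CPM (grey) and the 7 adhesion genes with more than 3 counts (orange). Blue bars span the quartiles of the 500 genes nearest in level. Vcam1 and Bcam sit above their bars and Alcam and Icam1 below theirs.

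Icam1 and Vcam1 are known targets of NF-kB, so a list of 20 other genes known to be induced by it was read in the same libraries. Of these, 18 lay above 1 CPM by edgeR's test, against 24.7% of all genes. Nfkbia, the inhibitor that NF-kB itself induces, was highest at 1337 ± 473 CPM, followed by the neutrophil chemokine gene Cxcl1 at 451 ± 435 CPM and Ier3 at 396 ± 49.4 CPM. Cxcl1 had 212, 1043, 499 and 52.3 CPM in animals 1 to 4. The monocyte chemokine gene Ccl2 had 78.4, 253, 316 and 39.6 CPM, and the ubiquitin-editing inhibitor gene Tnfaip3 had 24.9, 75.3, 37.4 and 10.4 CPM. Without animal 2 the means of Cxcl1 and Tnfaip3 were 254 and 24.2 CPM. All 3 were higher in animals 2 and 3 than in animals 1 and 4, as was Vcam1.

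Summed over the 20 genes, the level was 2634, 4552, 4327 and 1918 CPM. Among the 19 with a mean above 1 CPM, animal 2 was highest for 8 and animal 3 for 9, while animals 1 and 4 were lowest for 8 each. The same count was not made over all genes. The TMM factors (edgeR), not applied to these CPM, were 0.962, 1.008, 1.064 and 0.970 in animals 1 to 4. By these factors genes in general also read slightly higher in animals 2 and 3. Their part in the pattern was not tested. Icam1 was nearly level across the same animals, with log2 deviations of -0.20, -0.01, 0.14 and 0.07 from its mean, against -0.80, 0.88, 0.31 and -0.39 for Vcam1. Bcam deviated by 0.19, -0.53, 0.04 and 0.30, lowest where Vcam1 was highest. With 4 animals no correlation is given.

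**Figure D4:**
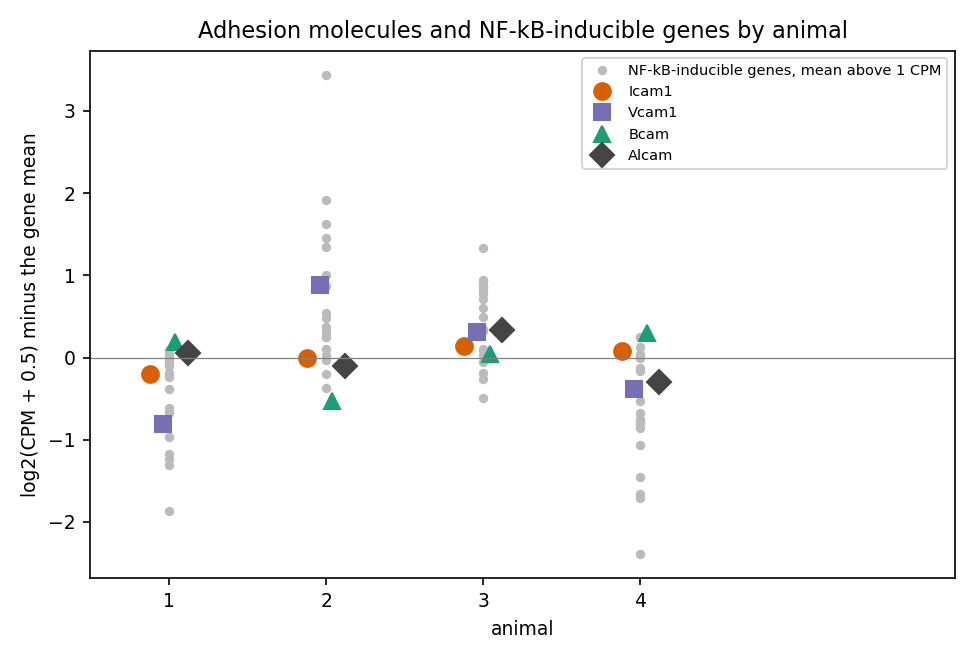
Deviation of log2(CPM + 0.5) from the gene's own mean in each animal, for Icam1, Vcam1, Bcam and Alcam (large symbols) and for the 19 NF-kB-inducible genes with a mean above 1 CPM (grey points). Vcam1 and most grey points lie above 0 in animals 2 and 3 and below it in animals 1 and 4, while Icam1 stays between -0.20 and 0.14.

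Fibroblast markers were also higher in animals 2 and 3. Their summed level over 10 genes was 15100, 22467, 19829 and 14828 CPM, and 9 of 10 lay above 1 CPM, led by the proteoglycan gene Dcn at 12889 ± 2116 CPM, with the collagen genes Col3a1 at 2741 ± 917 CPM and Col1a2 at 1141 ± 359.5 CPM. Fibroblasts can carry Vcam1. The 8 platelet markers summed to 24.7, 73.8, 63.5 and 32.1 CPM, with Pf4 at 0.265, 0.282, 1.16 and 1.03 CPM. Most of that sum was Itgb3, at 15.5, 51.9, 43.4 and 17.0 CPM, which is also on the list of receptors. Gp1bb and Treml1 were at 0, and the median of the 8 mean levels was 0.31 CPM. The part of these lists, and of the NF-kB-inducible genes, in the Vcam1 values was not tested. In a bulk sample more cells of a type and more RNA per cell cannot be told apart. For Mcam the cells of interest are pericytes and smooth muscle. Their 11 markers summed to 239, 167, 214 and 135 CPM, with 7 above 1 CPM, led by Acta2 at 96.0 ± 42.8 CPM, Kcnj8 at 26.8 ± 14.01 CPM and Des at 24.7 ± 11.8 CPM, and with Notch3 at 0. Their part in the Mcam values was not tested.

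Arhgdib and 3 macrophage markers were the leukocyte genes that passed. Of 10 general leukocyte markers Arhgdib alone passed, at 544 ± 44.6 CPM, while Lcp1 had 5.60, 0.473, 0.362 and 1.01 CPM, Laptm5 had 3.94, 3.04, 0 and 0.111 CPM, and Coro1a was at 0. None of 6 B cell markers passed, and their sum was 26.3 CPM in animal 1 and 0.453 to 1.84 CPM in the others (Igkc, Ighm and Cd79a highest). None of 6 T cell markers passed, with Lck, Cd2 and Cd3d at 0.259, 0.249 and 0.235 CPM. Of 9 macrophage markers 3 passed, namely Cd14 at 52.5 ± 13.1 CPM, Csf1r at 34.5 ± 5.22 CPM and Cd68 at 12.5 ± 5.23 CPM. The macrophage markers Adgre1, Lyz2, Mrc1, C1qa and C1qb did not pass, and Timd4 was at 0. The median of the 9 mean levels was 0.421 CPM. None of 8 Schwann cell and neuronal markers passed, with Uchl1, Tubb3 and Prph at 2.03, 1.996 and 1.47 CPM and Sox10 at 0.

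The sort removed CD45-positive leukocytes, which carry most receptors on the other side of these contacts. Of 16 integrin chains and other receptors of the 10 genes, 5 lay above 1 CPM by edgeR's test: Itgb1 at 157 ± 36.4 CPM, Itgav at 63.5 ± 11.04 CPM, Itgb3, Itga5 at 23.1 ± 2.20 CPM and Itga9 at 3.76 ± 3.39 CPM. That is 31.2% of the list, against 24.7% of all genes. Under other settings at 1 CPM the number ran from 4, as with voom weights in limma, to 6, as without animal 1. Itga9 did not pass without animal 3 (mean 2.46 CPM, adjusted p = 0.156 by edgeR). Itgb1 is the common beta chain of many matrix receptors, and Itgav with Itgb3 forms a receptor that can bind L1cam. The leukocyte chains that grip Icam1 did not pass, with Itgam at 0 and Itgal and Itgb2 at 0.0481 and 0.0377 CPM. Itga4, a chain that grips Vcam1, had 0.619, 0.338, 0.442 and 0.658 CPM, and Cd6, the receptor of Alcam, 0.962 estimated counts in all.

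Selectin ligands are proteins that carry particular sialylated, fucosylated or sulfated sugars. Of 18 carriers and sugar-modifying enzymes 9 lay above 1 CPM, against 24.7% of all genes. The galactosyltransferase B4galt1 was highest at 609 ± 141 CPM, followed by the sialomucin Cd34 at 480 ± 171 CPM and the sulfotransferase Chst4 at 466 ± 91.2 CPM, known from the high endothelial venules of lymph nodes. The fucosyltransferase Fut7, which completes the sugar bound by selectins, was at 0, and its relative Fut4 had 0.424 ± 0.600 CPM. Selplg, a carrier known from leukocytes, had 3.47, 0.316, 0 and 0 CPM and did not pass.

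Of 28 other adhesion genes of the immunoglobulin superfamily 21 lay above 1 CPM, against 24.7% of all genes. The median of the 28 mean levels was 9.45 CPM. F11r, a junctional adhesion molecule of epithelium, had 963 ± 39.8 CPM, its relative Esam 359 ± 12.4 CPM and the integrin-associated Cd47 329 ± 54.3 CPM. F11r was within 914 to 1009 CPM in every animal. Icam4, which lies beside Icam1 on chromosome 9, passed at 7.24, 1.10, 2.20 and 1.75 CPM (mean 3.07 ± 2.81 CPM, adjusted p = 0.00586 by edgeR). Without animal 1 the mean of Icam4 was 1.68 CPM and it did not pass (adjusted p = 0.584 by edgeR). Icam5 did not pass, at 0.0555 CPM. Cd99l2 of the CD99 family had 65.5 ± 7.99 CPM, and Cd99 itself was not in the table under that symbol.

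The next lists hold partners inside the cell and at its surface, to be read beside the 24.7% of all genes above 1 CPM. Of 9 linkers between membrane and actin 8 passed, led by Ezr, which binds the tail of Icam1, at 742 ± 132 CPM, Slc9a3r1 at 519 ± 218 CPM and Actn4 at 439 ± 40.9 CPM. Of 8 sheddases and secretases 7 passed, led by Bace2 at 170 ± 27.0 CPM, Adam10, which can release the ectodomain of L1cam, at 128 ± 28.2 CPM and Adam15 at 50.3 ± 13.2 CPM. Adam17, which can release Vcam1 and Icam1, had 45.2 ± 4.19 CPM. Of 10 laminin chains 7 passed, led by Lamb1 at 116 ± 23.6 CPM, Lamb2 at 84.8 ± 25.1 CPM and Lama4, the ligand of Mcam, at 82.1 ± 32.7 CPM. Lama5, the ligand of Bcam, had 13.2, 3.58, 19.5 and 15.4 CPM. Lama5 was lowest in animal 2, where Bcam was lowest too, and a link between them was not tested.

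A chosen list of 21 receptors and factors that can raise Icam1 and Vcam1 was read at the RNA level. Both counts in this paragraph are to be read beside the 24.7% of all genes above 1 CPM. All 21 genes of that list passed, led by the transcription factor Irf1 at 207 ± 71.6 CPM, the interferon gamma receptor Ifngr1 at 189 ± 76.9 CPM and the TNF receptor Tnfrsf1a at 178 ± 26.0 CPM. The interleukin receptor Il1r1 had 42.4 ± 16.6 CPM, Tlr4 24.0 ± 3.95 CPM, and the NF-kB subunits Rela and Nfkb1 86.9 ± 16.2 and 33.8 ± 8.80 CPM. Immediate early genes, known to respond to cell handling, passed in 15 of 16 cases. Fos, Klf6 and Zfp36 led at 4548 ± 653, 1714 ± 611 and 1631 ± 277 CPM, and the list summed to 12267 to 15395 CPM per animal. The part of the digestion and sort in the Icam1 and Vcam1 levels was not tested.

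**Figure D5:**
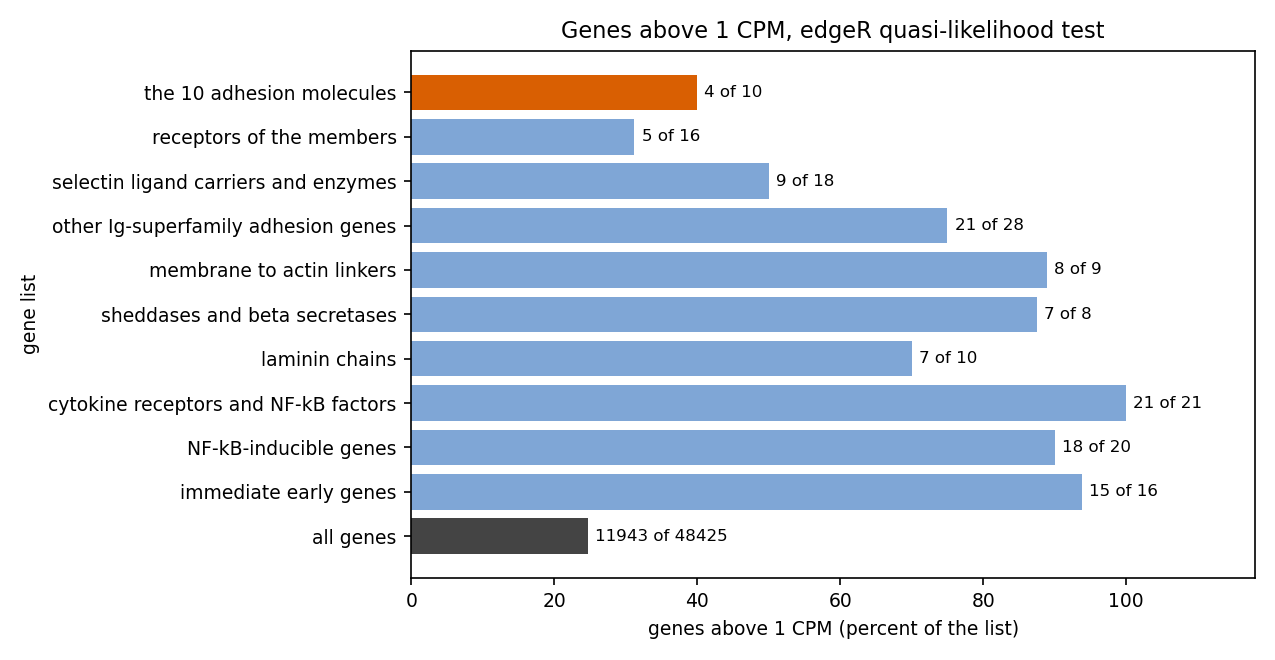
Percent of each gene list past 1 CPM in the edgeR test, with the counts beside each bar. The 10 adhesion molecules (orange, 4 of 10) and their receptors (5 of 16) are the shortest bars among the 10 lists drawn, and all genes of the table (black) stand at 24.7%. The CD99 family and the cell type markers are not drawn.

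Of 8791 other genes with a mean of at least 10 CPM, those whose pattern over the 4 animals was closest to Vcam1, by root mean square difference of log2 deviations, were Prr15 (0.0618), Tpst1 (0.0816) and Fam3c (0.095). Prr15 had 177, 600.4, 359 and 231 CPM, with animal 2 highest as for Vcam1. Closest to Icam1 were 2310022A10Rik, Srsf11 and Tceal8, all within 0.0198. Srsf11, a splicing factor gene, had 72.8, 85.3, 95.9 and 90.5 CPM. With 4 values per gene, close matches arise easily among so many genes.

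Some of the 10 genes overlap others, and it is not stated whether the counting used strand. The antisense gene Gm10687 overlaps Mcam and had 28.0 estimated counts against 35.6 for Mcam, but no transcript of Mcam matched one of Gm10687 at 95% identity over at least 100 bases. Arhgap4 overlaps L1cam on the same strand and had 28.0 against 10.0 for L1cam. A processed transcript of L1cam matched Arhgap4 over 102 bases at 100% identity, so reads from that stretch could belong to either gene. For Bcam the overlapping genes Gm45114 and Gm26600 had 5.86 and 8.83 against 5299. The antisense gene over Vcam1 was at 0. Parts of Icam1 transcripts matched 61 other genes at that level. The best match lay in its protein-coding transcript only for the overlapping Gm47079, which is not in the table, and otherwise in a retained intron. Only the best match to each gene was kept, so other matches of the protein-coding transcript are not known. Vcam1 matched 5 other genes and L1cam 8, with no best match in a protein-coding transcript. Selp matched 2, of which 1 through a protein-coding transcript. Icam2, Madcam1, Sele, Alcam, Mcam and Bcam matched no other gene at that level.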

How the data were processed

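The deposited table holds estimated counts per gene symbol, 1 column per library, with no normalization seen. Per the submitters' processing notes, kallisto 0.43.1, edgeR 3.24.3, limma 3.38.3 and GRCm38.p5 were used, with no role given for each; the step from transcripts to genes and the strand of the library are not given in the sources used here. CPM are the deposited estimated counts over the column total. For the test, counts were rounded and fitted with edgeR 4.0.16 (R 4.3.3), intercept only, with the column totals as library sizes. A quasi-likelihood F test, computed from the deviances because the packaged function needs more than 1 coefficient, asked whether each of 48425 genes lay above 1 CPM (one-sided, Benjamini-Hochberg, threshold 0.05). It was checked against the packaged function and tested on simulated data. Lengths and gene positions come from GENCODE M21 on GRCm38, whose chromosome coordinates patch releases leave unchanged. Transcripts of the 10 genes were aligned to all transcripts with BLAST 2.17.0. Zero values take a limit of 3 counts. Replicates are separate animals.

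Genes named in the text are the 10 members, the 3 highest of each list by mean CPM, defining markers, a few NF-kB-inducible genes and the 3 genes closest in pattern to Icam1 and Vcam1. Others were named for their known link to a member, after their values were seen. The members and all lists were chosen with earlier results of these data known. Alternatives were TMM (edgeR) and DESeq2 size factors, a DESeq2 1.42.0 Wald test, limma 3.58.1 with voom weights, a filter, other pseudocounts and lengths, a 10 CPM threshold, and each animal left out. Protein sequences were not used here.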

Additional observations from a re-analysis of the deposited data

Results flagged for a closer look

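None of the 7 adhesion genes with more than 3 counts had an animal far from the other 3 by Dixon's ratio. Among 95 genes tested this way, 14 did. Chance marks about 1 in 20 groups of spread values, but a gene at 0 in 3 libraries is marked whatever its level in the other, as were Reln, Ighm, Lck and Gm45114, so the number marked is not read as an excess. In animal 1 these were the leukocyte genes Ptprc (3.05 CPM), Lcp1 (5.60 CPM) and Selplg (3.47 CPM), and the B cell genes Igkc (9.36 CPM), Ighm (9.74 CPM) and Cd79a (5.66 CPM). In the other animals none of these 6 genes exceeded 1.01 CPM. Icam1 and Vcam1 were at their lowest in animal 1, and a link to these genes was not tested.

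Esam was highest in animal 1 at 377.3 CPM against 351 to 355 CPM, and Reln stood at 1.06 CPM there against 0. In animal 2 the chemokine gene Cxcl2 had 17.2 CPM against 0 to 0.653 CPM, and its mean without that animal was 0.281 CPM. Vcam1 was highest in animal 2 too, and a link between them was not tested. In animal 3 Itgb1 had 211 CPM against 133 to 144 CPM, Lck 1.04 CPM against 0, Gm45114 1.29 CPM against 0, and Gm10687, antisense to Mcam, 0 against 2.02 to 2.26 CPM. In animal 4 Tek had 7.80 CPM against 0.579 to 1.57 CPM.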

How the results depend on the processing

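The same number of adhesion genes, 4 of 10, lay above 1 CPM with TMM, DESeq2 size factors, the DESeq2 Wald test, voom weights in limma (counts rounded or not), a filter on low counts and without each animal in turn. No mean CPM of the 10 genes moved by more than 1 SD under TMM or DESeq2 size factors. Without animal 3 the mean of Icam2 fell from 0.905 to 0.478 CPM and that of L1cam from 0.569 to 0.313 CPM. With the threshold at 10 CPM the numbers fell to 3 of the 10 genes, 7304 genes in the whole table, 11 of the other immunoglobulin-superfamily genes, 4 of the laminin chains and 11 of the NF-kB-inducible genes. With the median length of protein-coding transcripts the log2 ratio of Bcam to Icam1 was 2.15 and that of Vcam1 to Alcam 0.98, and Icam2 over Mcam reversed to 0.25. Without division by length Alcam over Icam2 was 3.14 and Mcam over L1cam 0.97. With 1 animal left out, Icam2 over Mcam ran from -0.61 to 0.64 (0.64 without animal 1 and 0.20 without animal 4). The longest protein-coding transcript, an alternative added after seeing the data because the longest Vcam1 transcript is a retained intron, kept every direction. The SD of L1cam was 1.62 with a pseudocount of 0.1 and 0.51 with 1. No paired analysis was possible because there is only 1 group. Levels of Mcam, Icam2, L1cam and Selp rest on 1.41 to 35.6 counts, which limits what can be read from their differences between animals.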
